A study of Mus musculus with 4 samples.

Results

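Open chromatin was described around 10 mouse genes that bring glucose into the cell and carry it through glycolysis: the transporters Slc2a1, Slc2a3 and Slc2a4, the hexokinases Hk1 and Hk2, the phosphofructokinase Pfkp and its regulator Pfkfb3, and Pgk1, Pkm and Ldha of the later steps. They were picked by symbol as a pathway, with no measured value in the rule, and are 10 of 21911 protein-coding genes in the GENCODE M21 annotation of the mm10 genome. The cells were 3T3-L1, an immortalized line derived from mouse embryo fibroblasts (strain C57BL/6J per the labels), which can be turned into fat cells by hormones and is widely used as a preadipocyte model. No treatment, differentiation step or time was named, and every library had this same description, so the study holds a single condition. It comprised 4 DNase-seq libraries, 2 technical libraries for each of 2 biosamples. DNase-seq finds stretches of DNA that nuclease can reach, which mark promoters, enhancers and other regulatory sites. For every gene, all sites that touched the gene body or the 50 kb on either side were taken, and sites within 1000 bp of a start site were kept apart from the distal ones.

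Glucose crosses the plasma membrane through facilitative transporters, is trapped by hexokinases as glucose 6-phosphate, is committed to glycolysis by phosphofructokinase, and leaves the pathway as pyruvate or, through lactate dehydrogenase, as lactate. Slc2a1 encodes GLUT1, the basal transporter of most proliferating cells, and Slc2a4 encodes GLUT4, the transporter that insulin moves to the surface of fat and muscle cells. Many genes of the pathway, among them Slc2a1, Hk2, Pfkfb3, Pgk1 and Ldha, are textbook targets of the hypoxia-inducible factor HIF-1, which binds a short core sequence, and fat cells gain GLUT4 as they differentiate. Accessibility shows where a regulatory site is open. It measures neither transcript levels nor glucose uptake.

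A single list of peaks and a single list of hotspots were available for each biosample, each made from its pooled libraries. Peaks are windows of at most 150 bp that carry a score, and hotspots are enriched regions of varying width. Biosample 1 had 298793 peaks and biosample 2 had 97430, with median scores of 65 and 33. The scores are the authors' own values on a scale that the sources used here do not define, so each was ranked within its own list, as a percentile, and no score was set against a score of the other list. Read depth was unknown. The labels number the biosamples as biological replicates 1 and 2 of the same condition. Their lists were set side by side, with no spread within a biosample and no groups to test. Intervals on shares are 95% Wilson intervals, which cover counting error only. Whether the replicates were separate cultures was not stated, and differences between them may therefore be technical.

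Promoters of 9 of the 10 genes were open in both biosamples. An own-promoter peak, meaning one within 1000 bp of any annotated start site of the gene, was present in both lists for every gene but Slc2a3, which had none in either. Over all protein-coding genes 53.7% had such a peak in both lists, 65.0% in biosample 1 and 53.9% in biosample 2. Of the 6 genes with a CpG-rich most upstream start site, 5 were open in both lists. CpG-rich means observed over expected CpG of at least 0.6 in 1000 bp, and 81.7% of all such genes were open (8221 of 10066). The 4 other genes, Slc2a4, Hk1, Pfkp and Ldha, were all open, where 11775 of all 21911 genes of either kind were. That count includes the CpG-rich genes, so the share among the rest was below 53.7%. Pfkfb3 among the CpG-rich genes, and Hk1 and Ldha among the others, however, had no shared peak at the start site that classed them. The 81.7% also counts a peak at any start site. Ldha was open at a cluster with a ratio of up to 0.804. Hotspots gave the same 9 genes, against 54.0% of all genes. In all, the genes had 47 own-promoter peaks in biosample 1, of which 21 met a peak of the other list (44.7%, against 42.0% of all promoter peaks), and 23 in biosample 2, of which 22 did (95.7%, against 90.1%). Both shares were near those of all promoter peaks.

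The strength of these promoters varied widely. In biosample 1 the strongest own-promoter peak scored 148 at Pkm, 144 at Pgk1, 143 at Hk1 and at Hk2, 139 at Pfkfb3, 132 at Slc2a1, 131 at Ldha, 124 at Pfkp and 111 at Slc2a4. In biosample 2 the order was Hk2 with a score of 92, Pgk1 with 87, Pkm with 83, Hk1 with 74, Slc2a1 with 60, Pfkp with 48, Ldha with 42, Pfkfb3 with 41 and Slc2a4 with 27. The same 4 genes, Hk1, Hk2, Pgk1 and Pkm, led in both lists, and Slc2a4 came last in both. The median over the 9 genes was 139 in biosample 1, where all genes with an own-promoter peak had a median of 133, and 60 in biosample 2, where they had 62. Scores above that of all genes were held by 5 of the 9 in biosample 1 and by 4 of the 9 in biosample 2. As a group the promoters were near the middle of open promoters, and single genes lay well apart. Among all genes with an own-promoter peak Pkm ranked at percentile 97.1 in biosample 1 and 81.7 in biosample 2, Pgk1 at 84.9 and 86.2, Hk2 at 81.3 and 90.8, and Slc2a4 at 24.99 and 7.58.

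**Figure D1:**
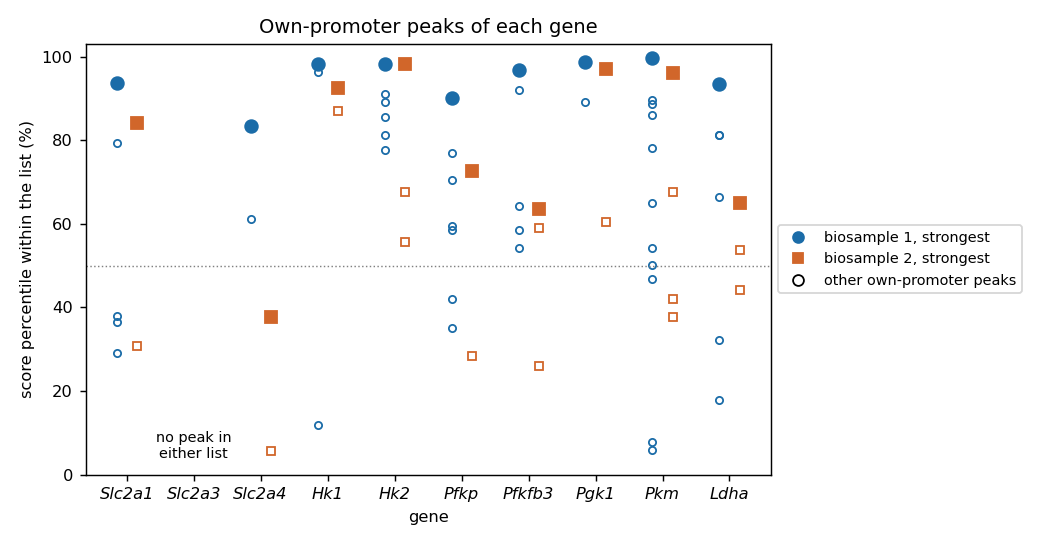
Score percentile of each own-promoter peak within its list (y axis, %) for the 10 genes (x axis), with circles for biosample 1, squares for biosample 2, filled marks for the strongest peak of a gene in a list and open marks for the others; the dotted line is the list median. Hk1, Hk2, Pgk1 and Pkm have a filled mark above 92 in both lists, those of Slc2a4 are at 83.4 and 37.7, and Slc2a3 has no mark.

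Of the transporters, Slc2a1 had the stronger promoter. Its gene lies at chr4:119108711-119137983 on the plus strand. The peak over its most upstream start site scored 132 in biosample 1 (percentile 93.8) and 60 in biosample 2 (percentile 84.2), and a further shared peak, 222 bp downstream of its nearest start site in biosample 1, scored 104 and 24. Slc2a4, at chr11:69942539-69948188 on the minus strand, had a pair of shared own-promoter peaks. The nearer, 28 bp upstream of the first start site, scored 77 (percentile 61.1) and 13 (percentile 5.57). The farther, 788 bp upstream, scored 111 (percentile 83.4) and 27 (percentile 37.7). Both peaks of Slc2a4 were thus in the weaker part of the list of biosample 2. The upstream sequences of both genes are shown because they differ in this strength. Capitals mark every match to the motifs searched, which are spelled out, or for longer motifs named, with the promoter motifs. Sequences run 5′ to 3′ on the gene's strand and come from GRCm38.p6, the assembly of mm10. Of each peak shown here and below, only the longest stretch outside annotated untranslated regions is printed, so some are shorter than their peak. The full Slc2a1 peak, chr4:119108596-119108745, holds 2 hypoxia response cores and 2 GC boxes, against 1 of each printed.
Slc2a1 start site peak, chr4:119108596-119108710, plus strand: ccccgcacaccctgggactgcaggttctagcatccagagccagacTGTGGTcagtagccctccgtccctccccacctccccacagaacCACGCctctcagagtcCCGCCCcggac
Slc2a4 nearer peak, chr11:69948216-69948365, minus strand: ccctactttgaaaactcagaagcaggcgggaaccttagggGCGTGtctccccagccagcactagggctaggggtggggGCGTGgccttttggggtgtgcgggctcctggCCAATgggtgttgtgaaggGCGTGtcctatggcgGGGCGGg
Slc2a4 farther peak, chr11:69948976-69949125, minus strand: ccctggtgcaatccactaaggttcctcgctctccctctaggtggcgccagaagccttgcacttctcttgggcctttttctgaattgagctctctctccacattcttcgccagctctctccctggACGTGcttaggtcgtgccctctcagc

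Slc2a3 encodes GLUT3, a transporter of high glucose affinity best known from neurons. It spans chr6:122727809-122801640 on the minus strand and has 8 annotated start sites, none with a peak or hotspot within 1000 bp in either list. Its most upstream start site lies in a CpG-rich stretch (observed over expected CpG 0.790), and a start site 59.4 kb downstream, in the cluster from which most of its transcripts begin, has a ratio of 0.607. The gene was not in closed surroundings. It had 33 distal peaks in biosample 1 and 16 in biosample 2, of which 15 in each list met a peak of the other. The nearest, in an intron 2.04 kb from a start site, scored 123 and 41. The strongest shared site by mean percentile, 3.00 kb upstream of the most upstream start site, scored 141 (percentile 97.5) and 79 (percentile 94.7), close to a downstream site with 140 and 80. It is shown as a strong open site next to a gene with no open promoter, and its capitals mark an AP-1 motif.
Slc2a3 upstream distal site, chr6:122804636-122804785, minus strand: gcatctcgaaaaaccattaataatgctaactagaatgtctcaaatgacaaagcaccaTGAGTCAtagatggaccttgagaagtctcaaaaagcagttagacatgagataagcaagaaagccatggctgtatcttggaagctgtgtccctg

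Both hexokinases had a strong promoter, at different kinds of start site. Hk2, the inducible hexokinase of muscle, fat and tumours, lies at chr6:82725025-82774454 on the minus strand, and its strongest peak, just upstream of the most upstream start site, scored 143 (percentile 98.3) in biosample 1. In biosample 2 the matching peak scored 92 (percentile 98.1), the highest of the 10 genes there. Another 2 shared own-promoter peaks lay farther into the gene and scored 126 and 44, and 122 and 36. Hk1, the housekeeping hexokinase bound to mitochondria, lies at chr10:62268855-62379908 on the minus strand and has 12 annotated start sites. A peak in both lists was found at only 1 of them, position 62340542, 39.4 kb downstream of the most upstream. The peaks there scored 143 and 138 in biosample 1 and 74 and 64 in biosample 2. The most upstream start site and the start site from which 7 of the transcripts begin had no peak in either list, and the start site at position 62358362 had a weak peak of 38 in biosample 1 alone. The sequences just upstream of the open start sites are shown, that of Hk2 with matches of several kinds. The Hk1 stretch, with a single hypoxia core, is only part of its peak of 138. In biosample 1 that full peak also holds a RUNX match. The stronger Hk1 peak of 143, which is not printed, holds a CCAAT box, so the 2 stretches do not compare the whole promoters.
Hk2 start site peak, chr6:82774476-82774625, minus strand: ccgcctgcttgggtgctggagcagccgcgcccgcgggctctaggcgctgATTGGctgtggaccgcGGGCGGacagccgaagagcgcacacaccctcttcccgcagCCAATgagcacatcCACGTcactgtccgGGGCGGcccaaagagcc
Hk1 open start site, chr10:62340543-62340645, minus strand: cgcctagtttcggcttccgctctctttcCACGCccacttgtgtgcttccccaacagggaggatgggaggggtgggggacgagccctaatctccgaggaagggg

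At the phosphofructokinase step both promoters were open in both lists. That of Pfkp was below the median of open promoters in both lists, and that of Pfkfb3 in biosample 2 alone. Pfkp, the platelet-type phosphofructokinase, lies at chr13:6579768-6648777 on the minus strand, and its start site peak scored 124 (percentile 90.1) and 48 (percentile 72.7). Among genes with an own-promoter peak this was percentile 35.3 in biosample 1 and 28.2 in biosample 2. Pfkfb3, which makes the phosphofructokinase activator fructose 2,6-bisphosphate, lies at chr2:11471433-11554077 on the minus strand with 13 start sites. Its shared peaks were not at the most upstream of these, which had a peak of 74 in biosample 1 alone, but at a cluster about 52 kb downstream, where 8 protein-coding transcripts share the start at position 11502101. There the peaks scored 139 and 128 in biosample 1 and 41 and 38 in biosample 2. Its rank among genes was accordingly unlike between the lists, 67.1 in biosample 1 and 19.8 in biosample 2, the widest gap of the 9 genes. The sequences are shown for the crowded GC boxes of Pfkp and for the E-box of Pfkfb3.
Pfkp start site peak, chr13:6648778-6648865, minus strand: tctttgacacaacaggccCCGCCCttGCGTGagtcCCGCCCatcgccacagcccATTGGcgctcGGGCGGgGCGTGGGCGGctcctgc
Pfkfb3 open start site, chr2:11502102-11502165, minus strand: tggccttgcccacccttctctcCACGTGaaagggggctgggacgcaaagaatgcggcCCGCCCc

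Of the later steps, Pkm and Pgk1 had promoters among the strongest of the set, and that of Ldha ranked lower. Pkm, which encodes pyruvate kinase M1 and M2, lies at chr9:59656368-59679375 on the plus strand. Its start site peak scored 148, at percentile 99.7, and 83, at percentile 96.0. Pkm also had the most own-promoter peaks, 11 in biosample 1 and 4 in biosample 2. Pgk1, phosphoglycerate kinase, is on the X chromosome at chrX:106187100-106203699, plus strand, and its start site peak scored 144 (percentile 98.6) and 87 (percentile 97.1) at exactly the same window in both lists. Ldha, which turns pyruvate into lactate, lies at chr7:46841475-46855627 on the plus strand. Its most upstream start site had a peak of 51 in biosample 1 alone. Its strongest shared peak was at the cluster of start sites 4.36 to 4.62 kb downstream and scored 131 (percentile 93.3) and 42 (percentile 64.9). Of the 2 other shared peaks, that just upstream of the cluster scored 107 and 30, and that over the start sites 5.61 and 5.66 kb downstream scored 107 and 35. These 3 sequences are shown because they carry the hypoxia core in different numbers. The Pkm stretch has no match, that of Pgk1 has 2, and that of Ldha has 4, of which 2 lie in a single E-box. The stretches are of unequal length, with 132 bases for Pkm, 150 for Pgk1 and 143 for Ldha. In the full peaks the numbers were 0, 2 and 5. These numbers are for 1 peak of each gene and do not compare whole promoters. The other shared own-promoter peaks of Pkm, with scores of 121 and 116 in biosample 1, held 1 and 2 cores there. That of Pgk1 held 0, and those of Ldha held 0 and 3.
Pkm start site peak, chr9:59656236-59656367, plus strand: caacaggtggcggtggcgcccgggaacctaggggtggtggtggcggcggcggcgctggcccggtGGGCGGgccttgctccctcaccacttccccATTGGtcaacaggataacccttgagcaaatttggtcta
Pgk1 start site peak, chrX:106186856-106187005, plus strand: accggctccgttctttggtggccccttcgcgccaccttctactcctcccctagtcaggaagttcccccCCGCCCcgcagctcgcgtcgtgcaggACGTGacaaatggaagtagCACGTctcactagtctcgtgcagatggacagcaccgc
Ldha open start site, chr7:46845696-46845838, plus strand: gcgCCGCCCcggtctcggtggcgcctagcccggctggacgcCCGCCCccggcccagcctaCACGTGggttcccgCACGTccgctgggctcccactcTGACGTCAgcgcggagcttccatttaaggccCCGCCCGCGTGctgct

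Hk1, Pfkfb3 and Ldha were thus open in both lists only at start sites other than the most upstream. The 10 genes have 87 annotated start sites, of which 56 had a peak within 1000 bp in biosample 1 and 49 in biosample 2. Neighbouring start sites share peaks, and the same share over all start sites of protein-coding genes was not computed. When each gene was read only at its most upstream start site, 6 genes were open in both lists, since Hk1, Pfkfb3 and Ldha dropped out. The share of all genes under that reading was not computed, and the 53.7% of all genes counts a peak at any start site. More start sites give more places for a peak, and the 10 genes have 87 where all 21911 have 93504. The peak at the open start site of Hk1 ranked with those of Hk2 and Pgk1 in biosample 1, although the CpG ratio there was 0.556 and that of its most upstream start site was 0.109. At the open cluster of Ldha the ratio reached 0.804, against 0.265 at the most upstream start site.

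**Figure D2:**
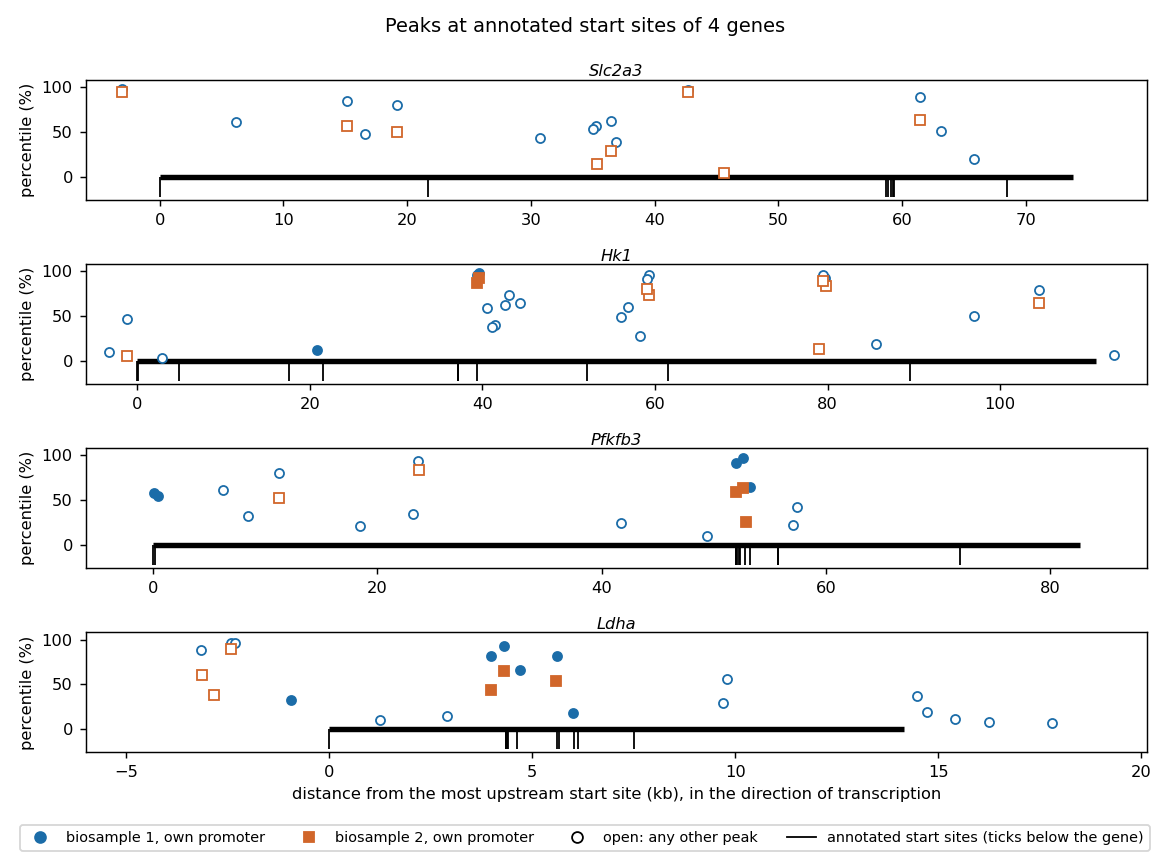
Score percentile (y axis, %) of the peaks near 4 genes against distance from the most upstream start site in the direction of transcription (x axis, kb), with circles for biosample 1, squares for biosample 2, filled marks for own-promoter peaks and ticks under the gene for annotated start sites. Filled marks of both lists stand together at 39.4 kb in Hk1, near 52 kb in Pfkfb3 and near 4.36 kb in Ldha, and Slc2a3 has no filled mark over any of its 8 start sites.

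Promoter windows of the 9 genes often held the hypoxia response core. All motifs were searched on both strands of the deposited windows, and a match says only that the letters are there. The core, ACGTG or GCGTG, was found in 24 of 47 own-promoter peaks of biosample 1 (51.1%, interval 37.2 to 64.7), against 27.2% of all 56422 promoter peaks of that list. In biosample 2 it was in 14 of 23 (60.9%, interval 40.8 to 77.8), against 34.1% of 26539. Each of the 9 genes with an own-promoter peak had the core in at least 1 such peak in both lists, against 65.2% of all genes with an own-promoter peak in biosample 1 and 59.2% in biosample 2. Peaks of these genes were also richer in G and C, with a median of 59.3% in biosample 1 against 52.7% for all promoter peaks, and more numerous, with a median of 5 own-promoter peaks per gene against 3. Within a narrower range of base composition, 55 to 65% G and C, 11 of 15 own-promoter peaks of biosample 1 had the core against 35.1% of all promoter peaks, and at 65% or more 7 of 11 had it against 48.6%. Below 45% the counts were 1 of 5 against 11.5%, and from 45 to 55% they were 5 of 16 against 20.6%. In biosample 2 the counts were 8 of 11 against 40.0% at 55 to 65%, 6 of 9 against 52.1% at 65% or more, and 0 of 3 against 23.6% at 45 to 55%. Peaks of a gene share its locus, so these counts are not of independent sites. Nor are the lists independent in sequence, since 22 of the 23 peaks of biosample 2 overlapped a peak of biosample 1.

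Other promoter motifs differed less from the background or rested on few peaks. The E-box CACGTG, which contains the core once on each strand and so counts as 2 core matches, was in 4 of 47 peaks of biosample 1 (8.51%, interval 3.36 to 19.9, against 3.87%), those of Hk1, Pfkfb3 and Ldha. The GC box GGGCGG, a sequence bound by SP and KLF factors, was in 14 (29.8%, interval 18.7 to 44.0, against 19.9%), with 4 matches in the Pfkp stretch printed with that gene and 3 in that of Ldha. CCAAT, the site of NF-Y, was in 11 (23.4%, interval 13.6 to 37.2, against 19.8%). The AP-1 motif TGANTCA was in 3 peaks of biosample 1 (6.38%, interval 2.19 to 17.2, against 10.6%), at Hk2 and Pkm, and in none of 23 in biosample 2 (against 9.84%). It was rarer where G and C were richer. Of all promoter peaks of biosample 2, 15.6% held it at 45 to 55% G and C, 6.12% at 55 to 65% and 2.03% at 65% or more. Peaks of these genes in those ranges numbered 3, 11 and 9. In biosample 1 the 3 matches were among 16 peaks at 45 to 55%, against 14.1%. The TEAD motif CATTCC was in none of 47 (interval up to 7.56%, against 9.58%), and CTCF was in none of 47 (against 2.20%). RUNX, TGTGGT, was in 6 of 47 (12.8% against 11.8%). TGACGTCA, the CREB motif, occurred in a single promoter window of biosample 1, that of Ldha. C/EBP, searched like CTCF and MEF2 with a longer consensus, was in 1 of 47 (2.13% against 0.581%), at Pkm, and MEF2 was in none (against 0.245%). No match says only that these letters are not in these windows.

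**Figure D3:**
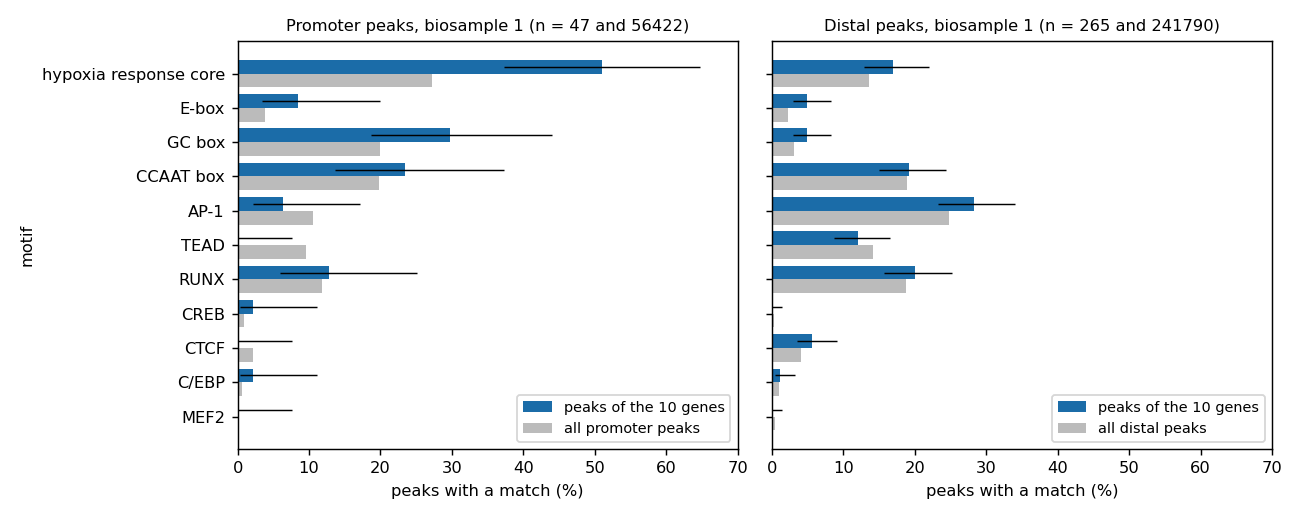
Share of peaks of biosample 1 with a match to each motif (x axis, %), for promoter peaks on the left and distal peaks on the right, with blue bars for peaks of the 10 genes, black lines for their 95% Wilson intervals, and grey bars for all peaks of the class. The blue bar of the hypoxia response core among promoter peaks reaches 51.1% against a grey bar of 27.2%, and at distal peaks the longest blue bar is that of AP-1, 28.3% against 24.7%.

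Around the promoters lay 265 distal peaks in biosample 1 and 91 in biosample 2. Every gene had at least 1 distal peak shared by both lists, as did 85.9% of all genes. Shared peaks made up 83 of the 265 in biosample 1 (31.3%, interval 26.0 to 37.1, against 27.7% of all distal peaks) and 81 of the 91 in biosample 2 (89.0%, interval 80.9 to 93.9, against 94.8%). Shared distal peaks of biosample 1 had a median score percentile of 86.1, and those found there alone 38.0. Of the 10 distal peaks of biosample 2 that met no peak of biosample 1, 8 lay in a hotspot of biosample 1. That share was not computed over all such peaks, but 98.1% of all distal hotspots of biosample 2 met a hotspot of biosample 1. In biosample 1, 90 of the distal peaks were in introns of the genes, 5 touched exons, 87 were upstream and 83 downstream. A distal peak near a gene need not act on it, and these windows also held 78 peaks of biosample 1 at promoters of other genes.

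**Figure D4:**
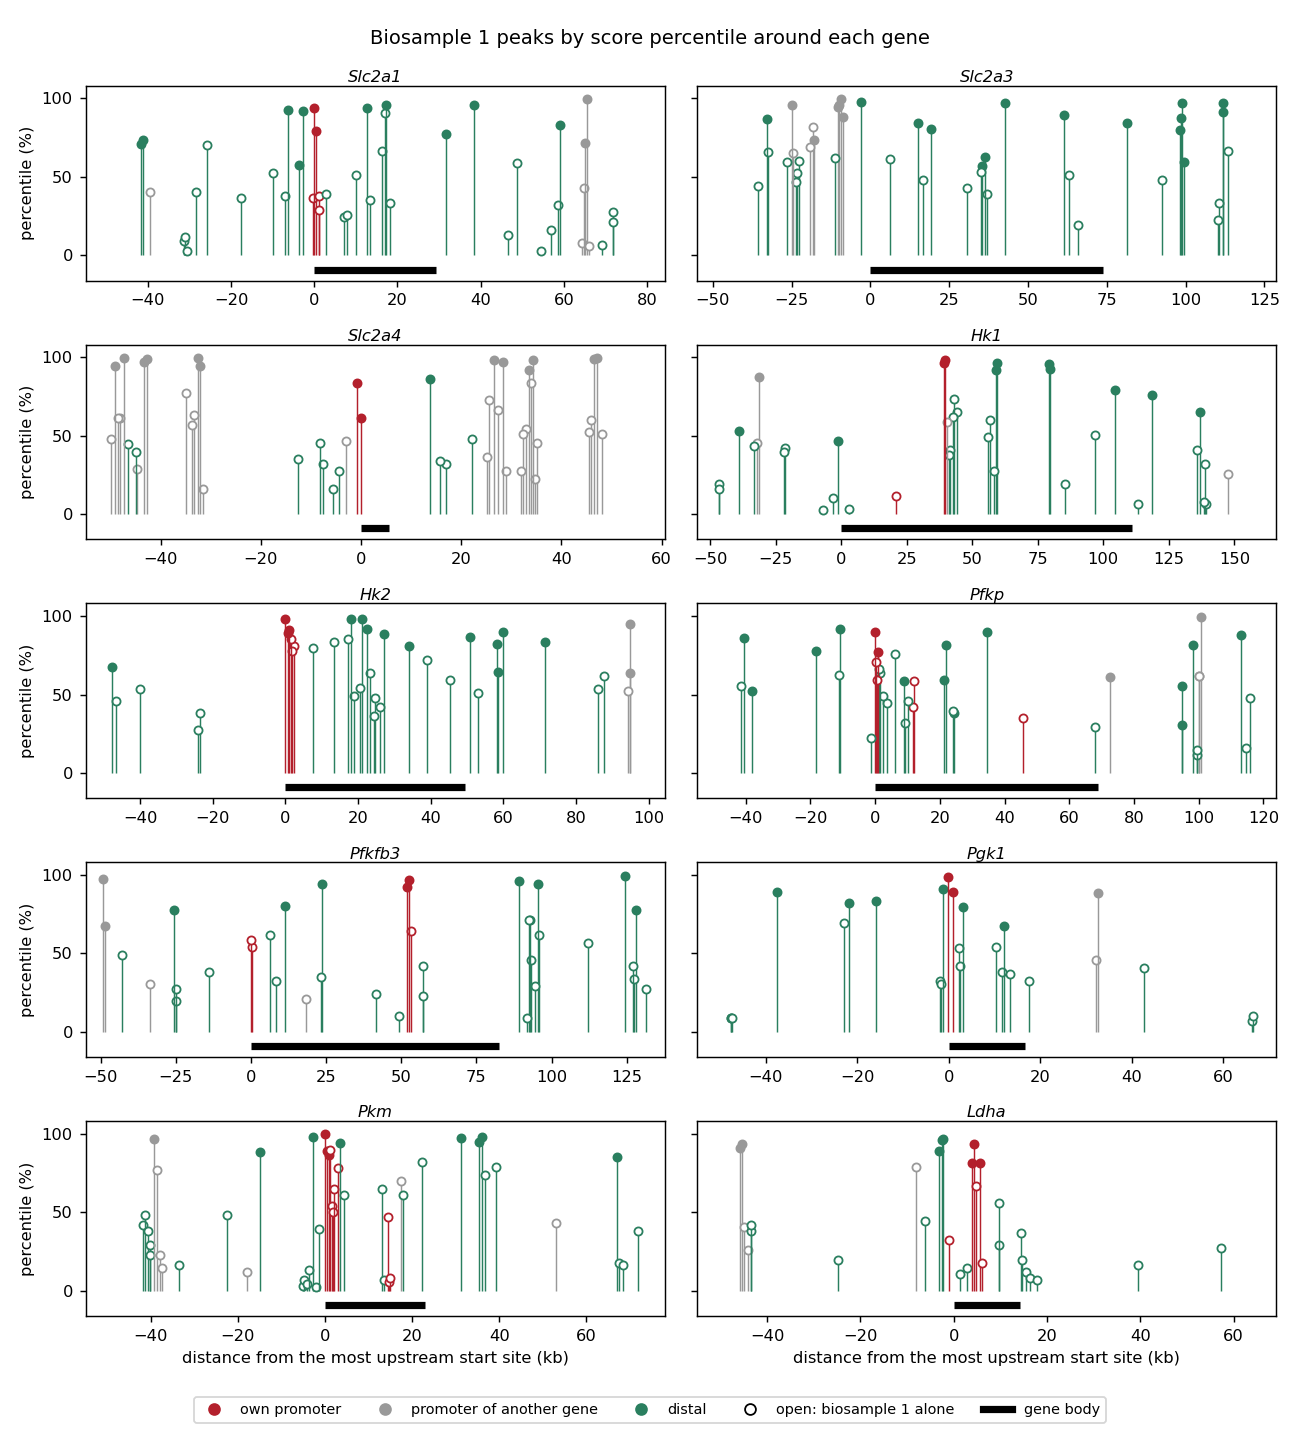
Peaks of biosample 1 around each of the 10 genes, by score percentile (y axis, %) and distance from the most upstream start site in the direction of transcription (x axis, kb), with red for own-promoter peaks, green for distal peaks, grey for promoters of other genes, filled marks for peaks shared with biosample 2 and a black bar for the gene body. Slc2a4 stands among 34 grey peaks and has a single filled green mark, while Slc2a3 has 15 filled green marks and no red.

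The loci differed in how densely they were set with distal peaks. Slc2a1 had 26.3 per 100 kb in biosample 1 and Pkm 24.4, at percentiles 94.0 and 91.8 of all protein-coding genes, and in biosample 2 they had 8.51 and 8.13, at percentiles 93.8 and 92.8. Slc2a3 led in biosample 2 with 9.20 (percentile 95.4) and had 19.0 in biosample 1 (percentile 79.5). Hk2 had 19.4 and 7.36, at percentiles 80.8 and 89.8, and Pfkp 17.2 and 7.69, at percentiles 73.4 and 91.2. Pgk1 (18.0 and 5.15), Hk1 (15.2 and 4.74) and Pfkfb3 (15.3 and 5.48) were between percentiles 64.9 and 76.4 in both lists. Ldha had 15.8 in biosample 1 (percentile 67.9) and 2.63 in biosample 2 (percentile 39.2). Slc2a4 had the fewest, 10.4 (percentile 41.2) and 0.947 (percentile 19.9), in a window that holds 11 other protein-coding genes, and 34 of its 47 peaks in biosample 1 were at promoters of other genes. The median over the 10 genes was 17.6 in biosample 1 and 6.42 in biosample 2, against 12.1 and 3.37 over all genes, and 9 and 8 of the 10 were above those medians.

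**Figure D5:**
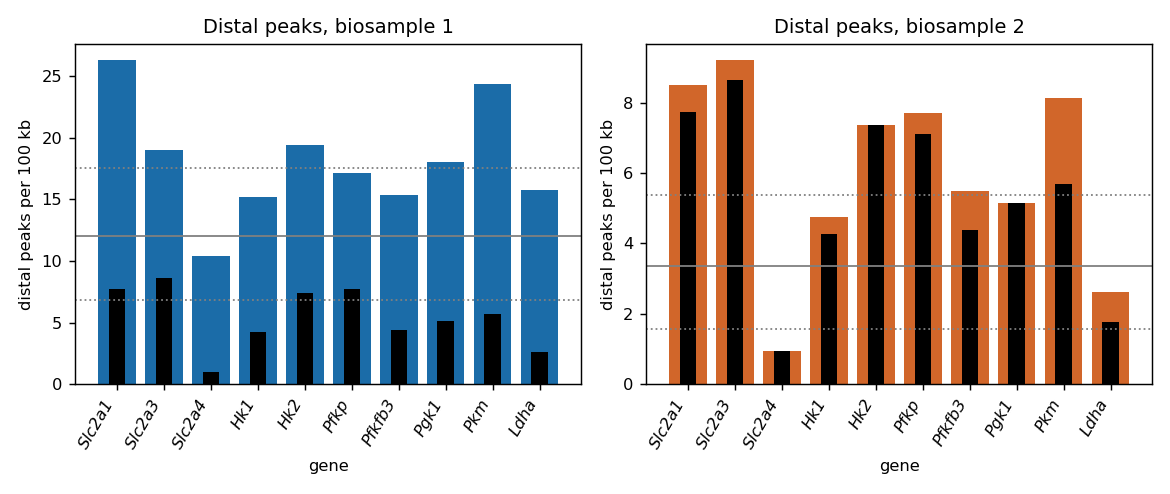
Distal peaks per 100 kb of gene body plus flanks (y axis) for the 10 genes (x axis), biosample 1 on the left and biosample 2 on the right with its own scale; the narrow black bar is the part shared with the other list, the solid line is the median of all protein-coding genes and dotted lines are the quartiles. Slc2a1 and Pkm are highest in biosample 1 at 26.3 and 24.4, Slc2a3 in biosample 2 at 9.20, and Slc2a4 is lowest in both.

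Several distal sites were as strong as the promoters. By mean percentile the strongest shared site of the 10 loci lay beyond the 3′ end of Pfkfb3, 52.2 kb from its nearest start site, and scored 147 (percentile 99.5) and 94 (percentile 98.5), above the own-promoter peaks of that gene in both lists. In an intron of Hk2, 16.5 kb from the start site, a site scored 142 (percentile 97.9) and 92 (percentile 98.1), and another, 19.7 kb from the start site, scored 143 and 66. A site 2.72 kb upstream of Pkm scored 142 and 90, and another, 20.7 kb from its nearest start site, scored 141 and 89. Slc2a1 had its strongest sites in introns, 17.1 kb from the nearest start site (137 and 72) and 12.5 kb from it (132 and 75). In Hk1 the strongest was an intronic site with 137 and 67. Upstream of Ldha a pair of overlapping windows scored 138 and 137 in biosample 1, and both met a single window of 68 in biosample 2. Lower values were reached by the strongest shared sites of Pgk1 (126 and 56, 1.14 kb upstream), Pfkp (128 and 44) and Slc2a4 (116 and 42, which holds a CTCF match). These 5 sequences are shown because they are the strongest shared distal sites of their genes and hold AP-1 or E-box matches.
Pfkfb3 downstream distal site, chr2:11429716-11429865, minus strand: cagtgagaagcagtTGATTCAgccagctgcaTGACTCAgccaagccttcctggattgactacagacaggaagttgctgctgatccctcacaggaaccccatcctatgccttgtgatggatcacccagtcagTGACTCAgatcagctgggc
Hk2 intronic distal site, chr6:82756336-82756485, minus strand: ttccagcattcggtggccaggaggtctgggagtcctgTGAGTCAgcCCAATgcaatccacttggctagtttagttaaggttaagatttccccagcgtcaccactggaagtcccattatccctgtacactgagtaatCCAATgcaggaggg
Pkm upstream distal site, chr9:59653496-59653645, plus strand: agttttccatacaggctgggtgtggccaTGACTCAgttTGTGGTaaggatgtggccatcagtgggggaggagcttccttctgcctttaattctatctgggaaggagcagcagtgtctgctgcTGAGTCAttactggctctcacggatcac
Hk1 intronic distal site, chr10:62300396-62300545, minus strand: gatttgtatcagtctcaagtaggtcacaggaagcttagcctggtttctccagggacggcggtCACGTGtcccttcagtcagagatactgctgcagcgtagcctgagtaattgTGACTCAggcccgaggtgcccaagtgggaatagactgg
Pgk1 upstream distal site, chrX:106185816-106185965, plus strand: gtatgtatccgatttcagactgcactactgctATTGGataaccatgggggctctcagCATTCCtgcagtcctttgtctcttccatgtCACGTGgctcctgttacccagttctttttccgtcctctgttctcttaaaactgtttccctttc

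AP-1 matches were frequent at the distal sites, as they were in the whole lists. TGANTCA was in 75 of 265 distal peaks of biosample 1 (28.3%, interval 23.2 to 34.0), against 24.7% of all distal peaks, and in 30 of 91 in biosample 2 (33.0%, interval 24.2 to 43.1, against 31.8%). The window beyond Pfkfb3 held 3 matches and the one upstream of Pkm held 2. All 10 genes had at least 1 distal AP-1 match in biosample 1, where each had 11 or more distal peaks. The share of all genes with such a match was not computed. The hypoxia core was in 45 of 265 distal peaks of biosample 1 (17.0%, interval 12.9 to 22.0, against 13.5%) and in 26 of 91 of biosample 2 (28.6%, interval 20.3 to 38.6, against 14.3%). The E-box was in 13 of 265 (4.91%, interval 2.89 to 8.21, against 2.26%) and in 8 of 91 (8.79%, interval 4.52 to 16.4, against 2.15%). Of the 13 peaks of biosample 1 with an E-box, 8 were shared with biosample 2, against 83 of all 265 distal peaks of these genes. With the core 24 of 45 were shared, and with AP-1 31 of 75. The share over all distal peaks with an E-box was not computed. Distal E-boxes were found near 8 of the genes in biosample 1, again with no share of all genes computed. None were near Slc2a4 and Ldha, which had the fewest distal peaks there (11 and 18). TEAD was in 12.1% of distal peaks of biosample 1 (against 14.1%), RUNX in 53 of the 265 (against 18.7%) and CTCF in 5.66% (against 4.03%). Median G and C content was 49.3% at these distal peaks and 47.3% at all distal peaks, and its part in the E-box and core shares was not tested.

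Hotspots around the same promoters differed in width. The widest own-promoter hotspot of each gene in biosample 1 was 5827 bp at Pkm, 3314 bp at Hk2, 2972 bp at Hk1, 2632 bp at Ldha, 2103 bp at Pfkp, 1942 bp at Pfkfb3, 1673 bp at Pgk1, 1247 bp at Slc2a1 and 443 bp at Slc2a4. That of Pkm was at percentile 99.96 of all hotspot widths in the list. In biosample 2 the widths were 1059 bp at Hk1, 909 bp at Pkm, 838 bp at Pgk1, 623 bp at Hk2, 617 bp at Ldha, 514 bp at Pfkfb3, 499 bp at Slc2a1, 319 bp at Slc2a4 and 299 bp at Pfkp. Each of the 9 genes had the wider region in biosample 1, the longer list. The −log10 q of these hotspots was at its cap of 100 in both lists, except for 6.00 at Pfkp in biosample 2, so it gave no order.

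The other genes of the pathway were open in part. Of 45 further genes of glucose transport, glycolysis and its regulation, 30 were open at a promoter of their own in both lists, 8 had no such peak, and 7 had it only in the longer list of biosample 1. These counts stand beside the 53.7% of all protein-coding genes that were open in both lists. Other transporters were open in both lists in 6 of 8 cases, with Slc2a8 strongest (145 and 80), and Slc2a5, the fructose transporter, and Slc2a12 had no peak. Other glycolytic enzymes were open in both lists in 10 of 21, among them Gapdh (146 and 90) and Aldoa (146 and 82). Without a peak in either list were Hk3, the germ cell forms Gapdhs, Pgk2 and Ldhc, and the liver and red cell pyruvate kinase Pklr. Among enzymes with a peak in biosample 1 alone were the brain aldolase Aldoc (61), the muscle mutase Pgam2 (48), and the neuronal and muscle enolases Eno2 (79) and Eno3 (110). Of 16 regulators and genes that handle lactate or pyruvate, 14 were open in both lists, led by Bpgm and Pdk2 (148 and 93 each) and Pfkfb4 (141 and 87). Pdk4, a pyruvate dehydrogenase kinase induced by fasting, had a peak of 79 in biosample 1 alone, and Mlxipl, the glucose-sensing factor ChREBP, had none. Hif1a was open in both lists (140 and 75), as were the lactate transporters Slc16a1 (137 and 55) and Slc16a3 (136 and 57).

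Marker promoters were read as a check of the labelled cell type. Of 7 fibroblast or preadipocyte markers 6 were open in both lists and Dlk1 in biosample 1 alone. Of 5 markers of mature fat cells, Plin1 was open in both lists (107 and 39), Fabp4 in biosample 1 alone (87), and Adipoq, Cfd and Retn had no peak. The epithelial markers Cdh1 and Epcam, the blood markers Ptprc and Cd3e, and Alb of liver had none, and of the endothelial pair Pecam1 was open (112 and 40) and Kdr was not. Both muscle markers, Ckm (90 and 28) and Des (94 and 30), had weak peaks in both lists.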

How the data were processed

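DNase-seq of 3T3-L1 cells was deposited as lists pooled over the technical libraries of each biosample, per the labels, on mm10, with an aligner and a peak caller not given in the sources used here. Each deposited peak score is a whole number of undefined scale, ranked here within its list only. The deposited hotspot lists give −log10 q values with a cap of 100. All intervals on the assembled chromosomes fitted the lengths of GRCm38.p6, from which sequences were read (pysam 0.24.0). Tables were made with Python 3.11.15, pandas 2.3.3 and numpy 2.4.6, and the interval code was tested on simulated data.

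Start sites came from all transcripts of GENCODE M21. Sites were own promoter (within 1000 bp), promoter of another gene, or distal, and were shared at an overlap of at least 1 bp. No test was run, since there is a single condition and a single list for each biosample. All 10 genes are named, with their strongest own-promoter peaks and up to 3 strongest shared distal peaks. Of the 45 other pathway genes, those with no peak, those with a peak in a single list and the 6 strongest are named, except some that are not reported here; Hif1a and the lactate transporters were named after their values were seen. The rule for the 10 genes uses symbols only, but these genes and all other gene, marker and motif lists were chosen with earlier results of these data known. Alternatives changed the promoter window, flank, start sites, overlap, list strength and kind of interval.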

Additional observations from a re-analysis of the deposited data

How the results depend on the processing

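Of 64 values recomputed under other settings, 57 stayed close to the reported ones (a count within 1.5 times, a share within its interval) and 7 moved. With the stronger 50% of each list, own-promoter peaks of biosample 2 numbered 15, distal peaks 130 in biosample 1 and 55 in biosample 2, and the shares of distal peaks shared rose to 41.5% and 96.4%; fewer peaks enter by construction. That setting left 8 genes open in both lists, without Slc2a4. With hotspots in place of peaks, biosample 1 had 25 own-promoter sites and 97.5% of distal sites of biosample 2 were shared. The most upstream start site alone left 6 open genes, with no share of all genes computed for that reading. No paired analysis was possible because no test was run, and leaving out single libraries was not possible because the lists pool them. Depth per list was unknown, so a site absent from the shorter list of biosample 2 was not detected there, which does not show that it was closed.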
